A study of Homo sapiens with 25 samples.

Results

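The CHD family of chromatin remodelers was followed in the RNA that came down with IGF2BP1. The 8 mRNAs were CHD1, CHD2, CHD3, CHD4, CHD6, CHD7, CHD8 and CHD9, out of 63086 genes in the count tables, of which 20044 were protein-coding. They were found by matching the Ensembl identifiers to gene symbols, and the family was chosen by the CHD7 level, which was strongly lower with both phosphomimetic mutants than with wild-type, so that the levels in those mutants against wild-type are given as a description. RNA immunoprecipitation sequencing (RIP-seq) isolates a protein from a lysate and sequences the RNA attached to it. The bait was IGF2BP1 fused to mCherry in HCT116 cells, a colorectal carcinoma line. All mCherry lines were IGF2BP2 KO and IGF2BP3 KO and carried Tet-OsTIR1-PURO. They expressed mCherry-IGF2BP1 WT, S181E, Y396E or RQ, the last with R167Q, R168Q, R174Q and R178Q. Cells received PBS (control) or 500 µM sodium arsenite, an oxidative stressor, for 2 hours. Each of the 8 groups had 3 libraries, except RQ in arsenite with 2, which made 23 libraries. Parental HCT116 cells without the bait, which the study calls nonengineered, gave 1 library per treatment. The fusion proteins were delivered by lentivirus into a knockout background made from sorted single-cell clones, and each line was a population sorted within a narrow window of mCherry fluorescence, so line and mutation cannot be told apart.

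CHD proteins are SNF2-type ATPases that use ATP to slide, space or evict nucleosomes, and they carry paired chromodomains that contact histone tails. CHD1 and CHD2 act at transcribed genes, CHD3 and CHD4 are the ATPase subunits of the NuRD histone deacetylase complex, and CHD6 to CHD9 form a separate branch that holds the CHARGE syndrome gene CHD7 and the autism-associated gene CHD8. IGF2BP1 is an oncofetal RNA-binding protein with RRM and KH domains joined by disordered linkers, and it stabilises and localises many mRNAs. S181E and Y396E replace residues in those linkers with glutamate to mimic phosphorylation, and RQ removes arginine charges next to Ser181.

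The codons that distinguish the lines are shown from the GENCODE reference transcript of IGF2BP1 (hg38, plus strand), written 5′ to 3′ with the replaced codons in capitals and codons counted from the initiator methionine. The bases of the expressed constructs were not read here. The first and second stretches lie at chr17:49038259-49038288 and chr17:49038286-49038315 in 1 coding exon, and share the codon of Arg174. The last lies at chr17:49043521-49043550 in a later coding exon.
IGF2BP1 first stretch, with Arg167, Arg168 and Arg174 (RQ): aatgggCGCCGAgggggctttggctctCGG
IGF2BP1 second stretch, with Arg174 and Arg178 (RQ) and Ser181 (S181E): CGGggtcagcccCGCcagggcTCAcctgtg
IGF2BP1 last stretch, with Tyr396 (Y396E): actggggctgctcccTATagctcctttatg

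Total counts ranged from 22246381 to 60273548 over the 23 mCherry libraries, and the parental control library held 1238013 counts, so its values are coarse. Of the colorectal epithelial markers, EPCAM, KRT8, KRT18, KRT19, CDH1 and CDX2 were present in all 23 libraries, while CDX1 was at 0 in every library and VIL1 reached at most 0.738 CPM (normalised read counts scaled to a common library size). The summed level of the 8 markers ranged from 685 to 1220 CPM in control and from 1570 to 2480 CPM in arsenite libraries. Leukocyte, endothelial and fibroblast markers summed to between 1.58 and 13.8 CPM, with PTPRC and COL1A2 at 0. The fibroblast marker COL1A1 was the highest of them, at 1.58 to 13.4 CPM (median 8.92). Its range overlapped that of CDX2, at 8.79 to 27.2 CPM. The part of the higher epithelial marker level in the arsenite changes was not tested. The summed epithelial level also differed by line, with Y396E above wild-type in control (965 to 1220 against 704 to 907 CPM) and in arsenite (2340 to 2480 against 1570 to 1630 CPM). The IGF2BP1 mRNA itself ranged from 60.9 to 123 CPM in control and from 37.2 to 81.7 CPM in arsenite libraries, and had 0 counts in both parental libraries, where 3 counts would be 2.02 CPM in control and 0.13 CPM in arsenite. The RNA-Seq libraries of the study were not used here, and so less of an mRNA on IGF2BP1, less of it per cell, and fewer cells that contain it cannot be told apart.

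Of the 8 mRNAs, 7 had more than 10 CPM in all 23 mCherry libraries and were tested among 8734 genes. CHD4, the NuRD ATPase, exceeded 10 CPM in 0 of 23 libraries and was not tested. Of its 6798 exonic bases, 5846 (86.0%) are also exonic in another annotated gene on the same strand, ENSG00000285238.2, whose median count was 0. Reads that lie on more than 1 gene are left out by the counting program unless it is told otherwise, which leaves 952 bases to be counted. The CHD4 level was between 0 and 7.93 CPM, including 1 wild-type control library with 0 counts beside libraries with 136 and 64, and says little about the CHD4 mRNA. The other 2 family members, CHD5 and CHD1L, were also not tested. CHD5 exceeded 10 CPM in 6 of 23 libraries, and 85.9% of the exonic bases of CHD1L lie in another gene.

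The members lie on 8 chromosomes. In hg38 CHD1 (ENSG00000153922.12) is at chr5:98853985-98929007 on the minus strand and CHD2 (ENSG00000173575.24) at chr15:92900189-93027996 on the plus strand. CHD3 (ENSG00000170004.19) is at chr17:7884796-7912760, plus strand, and CHD4 (ENSG00000111642.16) at chr12:6570082-6608430, minus strand. CHD6 (ENSG00000124177.16) spans chr20:41402083-41618377 on the minus strand and CHD7 (ENSG00000171316.14) chr8:60678740-60868028 on the plus strand. CHD8 (ENSG00000100888.15) lies at chr14:21385194-21456123, minus strand, and CHD9 (ENSG00000177200.18) at chr16:53054991-53329150, plus strand. All encode long mRNAs. The canonical transcripts ran from 6491 bases for CHD4 to 11606 bases for CHD7, which was longer than 97.4% of the tested genes' transcripts, whose median was 3682 bases.

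CHD7 was the most abundant member per length in the wild-type control RIP. Per kilobase of exon that belongs to no other gene, it reached 28.3 ± 0.182 CPM (SD, n = 3), and CHD9, its relative from the same branch, 16.3 ± 2.4 CPM. Their ranges did not overlap. CHD2 followed with 5.33 CPM per kb, CHD1 with 5.25, CHD8 with 4.39, CHD4 with 4.03, CHD3 with 2.71 and CHD6 with 2.59. Each of these 6 overlapped its neighbour in the order over the 3 libraries, but CHD1 and CHD2 lay entirely above CHD3 and CHD6, and the range of CHD9 lay above that of CHD2. In wild-type arsenite libraries CHD7 stood at 9.83, CHD9 at 7.94 and CHD1 at 7.76 CPM per kb, and the ranges of CHD9 and CHD1 overlapped.

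CHD7, the CHARGE syndrome gene, chose the family, and its levels in the phosphomimetic mutants follow without a test. In wild-type control libraries it stood at 366, 370.1 and 369.7 CPM. With S181E it was at 145, 148 and 127 CPM, and with Y396E at 122, 93.8 and 119 CPM. All 6 phosphomimetic libraries lay far below the wild-type ones under control conditions. After arsenite it was at 130, 123 and 130.4 CPM with wild-type, at 51.1, 42.7 and 49.8 CPM with S181E and at 29.5, 38.6 and 34.7 CPM with Y396E. The order of the lines was the same in both treatments, and the S181E and Y396E libraries did not overlap. The log2 changes against wild-type were -1.39 (standard error 0.11) for S181E and -1.71 (0.11) for Y396E in control, and -1.42 (0.11) and -1.87 (0.11) in arsenite. Ranked from the lowest change among 8734 genes, CHD7 was number 16 and number 5 in control and number 8 and number 6 in arsenite.

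**Figure D1:**
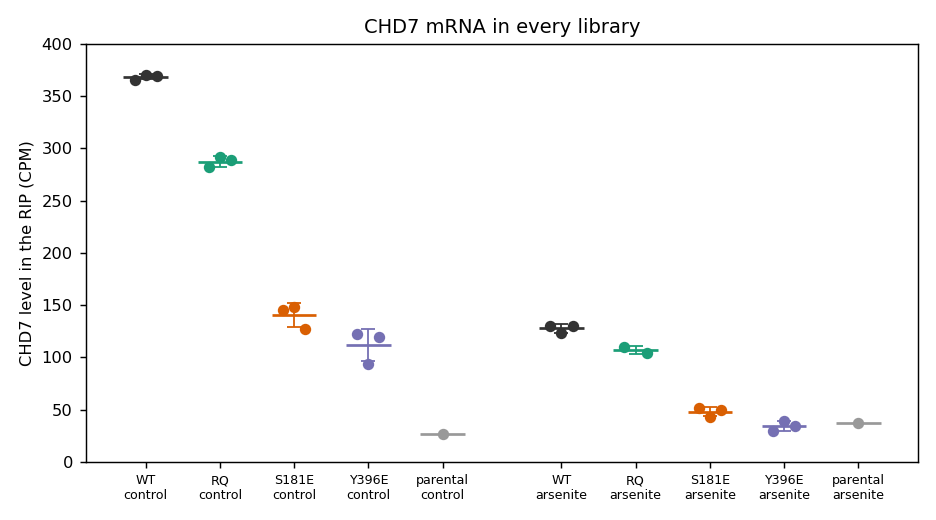
CHD7 level in CPM (vertical axis) in each library, by line and treatment (horizontal axis). Points are libraries, horizontal lines are means and bars are SD. The wild-type control libraries lie between 366 and 370.1 CPM, the Y396E arsenite libraries between 29.5 and 38.6 CPM, next to the parental arsenite library at 36.8 CPM.

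The other members were closer to wild-type in the phosphomimetic lines. CHD9 stood at 185, 249 and 229 CPM in wild-type control, at 182.8, 158 and 187 CPM with S181E and at 137, 124 and 145 CPM with Y396E, whose libraries all lay below the wild-type ones. CHD2 stood at 67.3, 88.4 and 82.8 CPM in wild-type control, at 63.7, 63.5 and 71.5 CPM with S181E and at 51.6, 46.01 and 54.1 CPM with Y396E. Calls required a change of more than 20% and an adjusted p under 0.05. In control, CHD7 and CHD9 were called lower with S181E, 2 of 7 members where 8% of all tested genes were called lower, and CHD2, CHD7 and CHD9 with Y396E, 3 of 7 where 12.7% were. In arsenite, CHD7 was called lower with S181E, 1 of 7 where 5.34% of all genes were, and CHD1, CHD2, CHD7 and CHD9 with Y396E, 4 of 7 where 19.4% were. With the replicate number as a block, CHD9 joined CHD7 with S181E in arsenite, with a log2 change of -0.31. None was called higher, where 12.8, 2.2, 16.2 and 13.1% of all genes were called higher in these 4 comparisons. Under other settings some were. Total counts called CHD1 higher with S181E in control (0.30) and CHD8 higher with Y396E in arsenite (0.52), and CHD3 was called higher with Y396E in control with total counts (0.90), without a filter (0.62) and with the replicate block (0.66). Fitting only the groups compared also called CHD8 higher with Y396E in arsenite (0.30). With total counts CHD9 lost its call with S181E in control (-0.16), and CHD1 (-0.21) and CHD2 (-0.26) lost theirs with Y396E in arsenite. These comparisons share the wild-type libraries and were used in choosing the family, so that nothing was read from the counts. CHD9 lost its call against S181E in control without the first or second S181E library or the second or the third wild-type library. CHD2 lost its call against Y396E in arsenite without the second or the third wild-type or the third Y396E library, and CHD1 lost it without the second Y396E library.

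**Figure D2:**
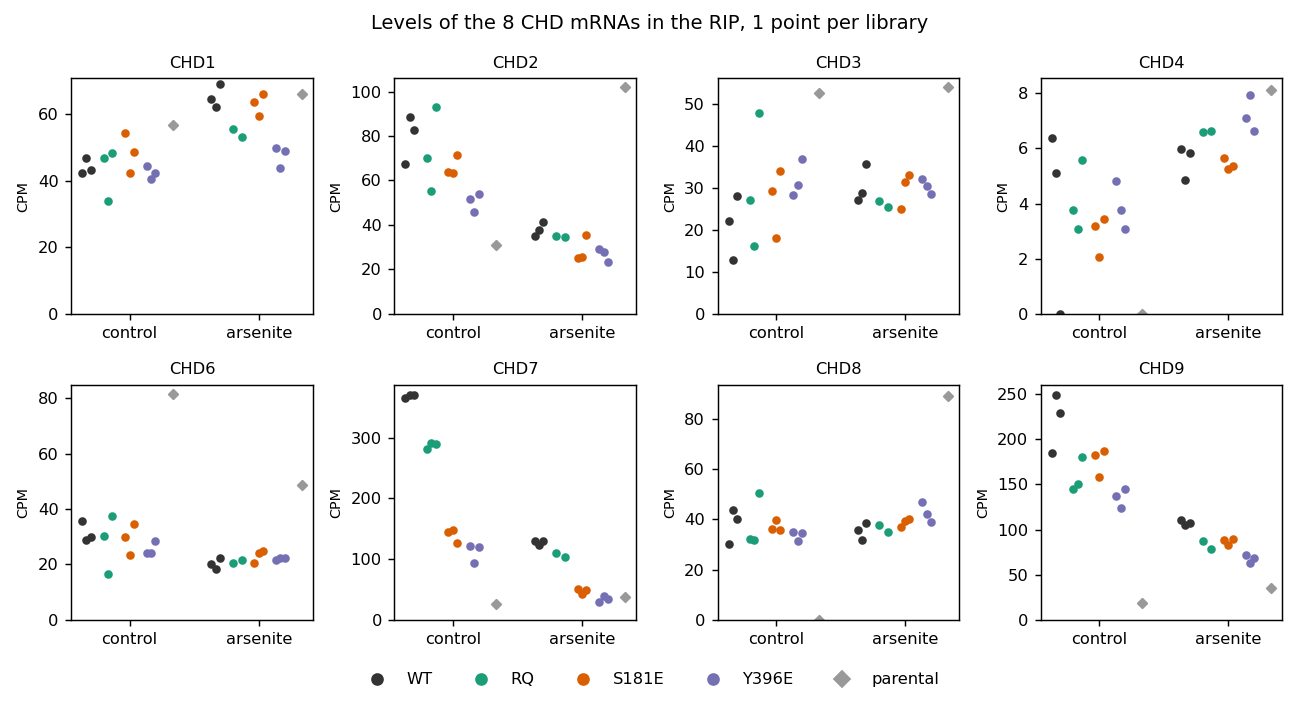
Level of each of the 8 CHD mRNAs in CPM (vertical axes, each from 0) in every library, with control libraries on the left and arsenite libraries on the right of each panel. Colours mark the lines and grey diamonds the parental library. CHD2, CHD7 and CHD9 lie lower in arsenite within each mCherry line, while their parental library lies higher in arsenite than in control. Over the mCherry libraries CHD3 and CHD8 show overlapping ranges, and CHD4 stays under 8 CPM.

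Whether the response to stress extended across the family was examined by comparing arsenite with control within each line, a contrast the choice of members did not use, although it rests on the same libraries. CHD7, CHD2 and CHD9 were lower in arsenite in all 4 lines, and the share of all genes lower in all 4 is not given here. CHD7 changed by -1.54 in log2 with wild-type (edgeR adjusted p = 2.6e-11), by -1.57 with S181E (2.23e-11), by -1.70 with Y396E (8.42e-12) and by -1.43 with RQ (1.04e-09). In the RQ line it went from 282, 292 and 289 CPM in control to 109 and 104 CPM in arsenite. No control library of any line overlapped an arsenite library of the same line. With wild-type, 4 of 7 members were called lower and 1 higher, where 31.8% of all genes were called lower and 35.4% higher. With S181E 3 were lower and 1 higher (34.6 and 33.3% of all genes), with Y396E 3 lower and none higher (33.8 and 31.3%), and with RQ 3 lower and 1 higher (32.3 and 32.4%). Most of the genes tested were called in one direction or the other in every line.

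CHD2, a relative of CHD1 that acts at transcribed genes, went from 67.3, 88.4 and 82.8 CPM in wild-type control to 34.9, 37.9 and 41.3 CPM in wild-type arsenite, a log2 change of -1.07 (standard error 0.16, edgeR adjusted p = 3.3e-06). In the S181E line it changed by -1.23 (edgeR adjusted p = 4.88e-07), to 25.0, 25.6 and 35.6 CPM. In the Y396E line the change was -0.92 (edgeR adjusted p = 2.62e-05), to 29.1, 27.6 and 23.2 CPM. In the RQ line it went from 70.0, 55.4 and 93.2 CPM to 34.9 and 34.7 CPM, by -1.07 (edgeR adjusted p = 2.25e-05), and no arsenite library of any line reached the lowest control library of that line. The parental library held 31.1 CPM of CHD2 in control and 102 CPM in arsenite. In arsenite the mean CHD2 level of the lines was 0.261 to 0.373 times that of the parental library.

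CHD9 in wild-type went from 185, 249 and 229 CPM to 110.4, 106 and 107 CPM, a log2 change of -1.05 (standard error 0.11, edgeR adjusted p = 1.73e-08). In arsenite it stood at 88.9, 83.4 and 89.1 CPM with S181E, a change of -1.04 (edgeR adjusted p = 1.87e-08). With Y396E it stood at 72.0, 63.4 and 68.8 CPM, a change of -0.99 (edgeR adjusted p = 4.79e-08). RQ libraries went from 145, 149.9 and 180.7 CPM to 87.8 and 78.5 CPM, by -0.93 (edgeR adjusted p = 8.84e-07). The groups were separate in every line, and the changes of CHD2, CHD7 and CHD9 kept their direction and their call under each alternative and without any single library.

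CHD1 moved the other way in 3 of the 4 lines, although its mean was below the parental library in every line and treatment. In wild-type it rose from 42.3, 46.9 and 43.2 CPM to 64.6, 62.2 and 68.9 CPM, a log2 change of 0.55 (standard error 0.12, edgeR adjusted p = 0.000339). The parental library held 56.7 CPM in control and 66.1 CPM in arsenite. CHD1 rose by 0.36 with S181E (edgeR adjusted p = 0.0111) and by 0.34 with RQ (edgeR adjusted p = 0.0297). With Y396E it stood at 44.3, 40.4 and 42.2 CPM in control and at 49.7, 43.7 and 49.0 CPM in arsenite, a change of 0.17 that was not called (95% interval -0.08 to 0.42). The direction depended on the scaling. When TMM factors came from the 3572 tested genes that did not exceed the parental arsenite library, here called the parental-level scaling, all changes shifted down, with a median shift of -0.38 in wild-type, -0.43 in S181E, -0.43 in Y396E and -0.39 in RQ, and CHD1 changed by 0.18 in wild-type (edgeR adjusted p = 0.267), by -0.07 in S181E and by -0.06 in RQ. In Y396E it changed by -0.26 there (edgeR adjusted p = 0.102). The RQ call was also lost without a filter (edgeR adjusted p = 0.0764), with only the groups compared (0.138) and without the first or second RQ arsenite library or the second RQ control library, and the S181E call without the second S181E control library.

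CHD6 was called lower in wild-type but not in the other 3 lines. It went from 35.5, 28.7 and 29.7 CPM to 20.1, 18.4 and 22.3 CPM, a log2 change of -0.64 (standard error 0.20, edgeR adjusted p = 0.00802). In the other lines its change was -0.37 with S181E (95% interval -0.79 to 0.05), -0.22 with Y396E (-0.63 to 0.20) and -0.41 with RQ (-0.89 to 0.06), none of which was called, and the difference from wild-type was tested only for RQ. In Y396E the 3 arsenite libraries lay below the 3 control libraries. CHD6 and CHD3 were at 0.383 and 0.398 times the parental library in wild-type control, and at 0.416 and 0.564 times in wild-type arsenite. Without the second control library of the line, CHD6 was called in S181E (-0.51, edgeR adjusted p = 0.043) and in RQ (-0.68, edgeR adjusted p = 0.00296), and the parental-level scaling called it in S181E (-0.81), Y396E (-0.65) and RQ (-0.83). CHD3, a NuRD ATPase, spread widely, from 12.7 to 28.1 CPM over the wild-type control libraries and from 27.1 to 35.6 CPM in wild-type arsenite, with a change of 0.53 that was not called (95% interval -0.07 to 1.13), and was called without the third wild-type control library (0.78, edgeR adjusted p = 0.0337) and when genes were not filtered (edgeR adjusted p = 0.046). CHD8 was not called in any line. Its change was -0.11 in wild-type (95% interval -0.43 to 0.21), 0.03 in S181E (-0.29 to 0.35), 0.34 in Y396E (0.03 to 0.66, edgeR adjusted p = 0.051) and -0.07 in RQ (-0.42 to 0.28), and in Y396E its 3 arsenite libraries lay above the 3 control libraries. The Y396E change was called by DESeq2 (0.36, adjusted p = 0.04), with total counts, with only the groups compared and without the third Y396E arsenite library. With the parental-level scaling, CHD8 was called lower in wild-type (-0.49), S181E (-0.40) and RQ (-0.48), and changed by -0.09 in Y396E. That scaling gave 5 members lower and 0 higher in wild-type, S181E and RQ, and 4 lower and 0 higher in Y396E.

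**Figure D3:**
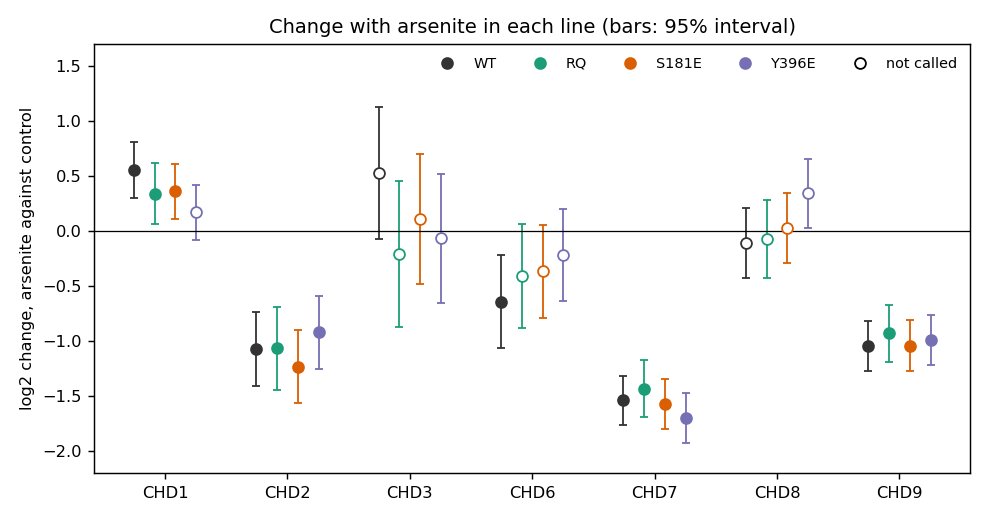
Log2 change of the 7 tested CHD mRNAs in arsenite against control (vertical axis) in each line (colours), with 95% intervals as bars. Filled points were called and open points were not. CHD7 lies between -1.70 and -1.43, and CHD2 and CHD9 between -1.23 and -0.92, in all 4 lines.

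The KH domains of IGF2BP1 differ in binding specificity, and a GGAC core is only 1 of the elements they recognise. Only the letters CGGAC and UGGAC were counted, on the sense strand of the canonical mRNAs, and other elements were not. CHD7 held 10 CGGAC, or 0.862 per kb, above 85.3% of tested genes, whose median was 0.267 per kb and of which 65.9% held at least 1. CHD2 held 4, CHD9 2, CHD1 3, CHD3 3, CHD8 2, CHD6 1 and CHD4 1. UGGAC, held by 94.8% of all tested mRNAs, was found 16 times in CHD7, 12 times in CHD2 and 12 times in CHD9, and its density in the 8 mRNAs lay between the percentiles 13.2 and 73.5. CHD9 was below the median density for both, at the percentiles 40.6 and 45.3. A pair of CGGAC matches in the coding sequence is shown for each of CHD2 and CHD9, the members that were lower in arsenite in every line beside CHD7, with the motif in capitals. They are letter matches in the reference (GENCODE, hg38, plus strand, written as DNA), at chr15:92978280-92978308, chr15:92979237-92979265, chr16:53157346-53157374 and chr16:53262999-53263027 in this order, each within 1 exon.
CHD2, coding position 2636: atttggcttcagCGGACacagtcgtcatc
CHD2, coding position 2842: gacaccactggcCGGACgatcctggaaaa
CHD9, coding position 1269: tgagtcaacattCGGACaagataattcaa
CHD9, coding position 4234: gcatctggaaacCGGACagatatttcttt

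The RQ line, with arginines of the first linker replaced, was compared with wild-type, and line and mutation cannot be told apart. The choice of members rested on the phosphomimetic mutants against wild-type and not on this comparison, but earlier results of these data were known. It used the wild-type libraries that are the reference here, so the CHD7 difference is not independent of that choice. In control, CHD7 and CHD9 were lower with RQ, 2 of 7 members, where 2.83% of all genes were called lower and 3.51% higher. CHD7 stood at 282, 292 and 289 CPM with RQ against 366, 370.1 and 369.7 CPM with wild-type, and the groups did not overlap. Its log2 change was -0.36 (standard error 0.11, edgeR adjusted p = 0.0437). CHD9 stood at 145, 149.9 and 180.7 CPM against 185, 249 and 229 CPM, a change of -0.48 (standard error 0.11, edgeR adjusted p = 0.0116). The highest RQ library lay just below the lowest wild-type library. The IGF2BP1 mRNA was at 104 to 123 CPM in RQ and 60.9 to 70.1 CPM in wild-type control libraries, and its part in these differences was not tested. The call of CHD7 was lost without any 1 of the 6 libraries, with edgeR adjusted p from 0.0565 to 0.113, and when genes were not filtered (0.0764), when total counts were used (0.0979) or when only these 2 groups were fitted (0.543). CHD9 lost its call without the first RQ library (edgeR adjusted p = 0.0531) and when only these groups were fitted (0.472).

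CHD1, CHD2, CHD6 and CHD8 had log2 changes between -0.17 and 0.01 with RQ in control, and CHD3 of 0.52 (95% interval -0.08 to 1.12), none of them called. The interval for CHD2 was -0.45 to 0.20 and that for CHD8 -0.31 to 0.33. In arsenite, none of the 7 was called with RQ, where 0.218% of all genes were called lower and 0.286% higher, and 842 of 8734 genes had an unadjusted p under 0.05. DESeq2 called 0 members there too. CHD7 was at 109 and 104 CPM against 130, 123 and 130.4 CPM, a change of -0.25 (95% interval -0.50 to -0.01, edgeR adjusted p = 0.504). CHD9 was at 87.8 and 78.5 CPM against 110.4, 106 and 107 CPM, a change of -0.37 (95% interval -0.62 to -0.11, edgeR adjusted p = 0.275), and it was called when only the 5 libraries of these groups were fitted (edgeR adjusted p = 0.00761). The RQ libraries lay below all wild-type libraries for CHD7 and CHD9. They did so too for CHD1 and CHD3, which changed by -0.25 and -0.22 without a call. The share of all genes with such a separation is not given here. The difference between the RQ changes in arsenite and in control was 0.10 for CHD7 (95% interval -0.22 to 0.43), 0.12 for CHD9 (-0.22 to 0.45) and 0.23 for CHD6 (-0.40 to 0.86). No member was called in this interaction, where 0.0114% of all genes were called lower and 0.0572% higher by edgeR, with 844 genes at an unadjusted p under 0.05 and 0 members called by DESeq2.

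The phosphomimetic mutants were also compared with each other, in libraries that the choice of members had set against wild-type. Line and site cannot be told apart here. The summed epithelial marker level was higher with Y396E, at 965 to 1220 CPM against 687 to 880 CPM with S181E in control and at 2340 to 2480 CPM against 1850 to 1990 CPM in arsenite. The IGF2BP1 mRNA was also higher with Y396E, at 71.4 to 108.8 CPM against 65.1 to 68.0 CPM in control. In arsenite it was at 52.0 to 52.3 CPM against 40.8 to 42.3 CPM. The part of either in these differences was not tested. In control, CHD9 was lower with Y396E than with S181E, at 137, 124 and 145 CPM against 182.8, 158 and 187 CPM, a log2 change of -0.38 (standard error 0.11, edgeR adjusted p = 0.031). It was the only member of 7 called, where 6.51% of all genes were called lower and 3.6% higher. CHD7 changed by -0.32 (95% interval -0.54 to -0.10, edgeR adjusted p = 0.0555), with 122, 93.8 and 119 CPM against 145, 148 and 127 CPM. The replicate numbers paired these libraries, and with the replicate as a block CHD7 was called too (-0.32, edgeR adjusted p = 0.0247), which made 2 members. CHD2, at 51.6, 46.01 and 54.1 CPM against 63.7, 63.5 and 71.5 CPM, changed by -0.38 (95% interval -0.71 to -0.06, edgeR adjusted p = 0.117), with no overlap between the groups. The call of CHD9 was lost without the first or the third S181E library or the first or second Y396E library, with edgeR adjusted p from 0.0708 to 0.173.

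In arsenite, CHD7 and CHD1 were lower with Y396E than with S181E, 2 of 7 members, where 9.22% of all genes were called lower and 2.59% higher. CHD7 stood at 29.5, 38.6 and 34.7 CPM against 51.1, 42.7 and 49.8 CPM, a log2 change of -0.45 (standard error 0.11, edgeR adjusted p = 0.00872). Both groups were within 1.5-fold of the parental arsenite library at 36.8 CPM. CHD1 stood at 49.7, 43.7 and 49.0 CPM against 63.7, 59.5 and 66.1 CPM, a change of -0.38 (standard error 0.12, edgeR adjusted p = 0.0425), and all Y396E libraries lay below the S181E ones. CHD9 changed by -0.32 (95% interval -0.55 to -0.10, edgeR adjusted p = 0.0568) and was called by DESeq2 (adjusted p = 0.0481), with the parental-level scaling and with only the groups compared. The call of CHD7 was lost without the first S181E library (edgeR adjusted p = 0.0643) or the first Y396E library (0.0674), and that of CHD1 without any 1 of the 6 libraries (0.0515 to 0.179). The difference between the arsenite and the control change was not called for any member, where 0.0343% of all genes were called lower and 0% higher by edgeR, with 369 genes at an unadjusted p under 0.05 and 0 members called by DESeq2. It was -0.13 for CHD7 (95% interval -0.44 to 0.19) and 0.31 for CHD2 (-0.15 to 0.78).

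**Figure D4:**
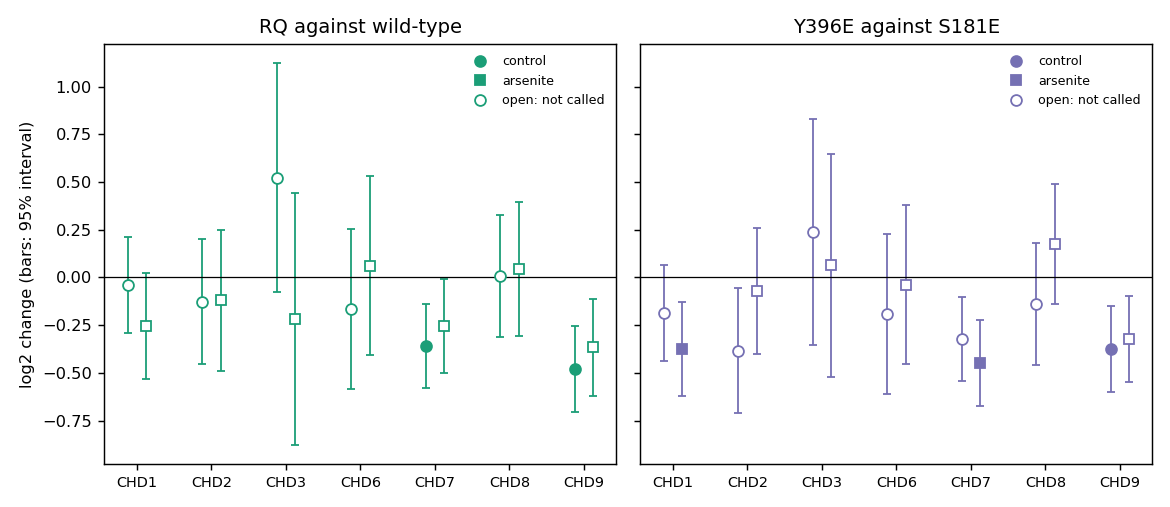
Log2 change (vertical axis, bars are 95% intervals) of the 7 tested CHD mRNAs for RQ against wild-type (left) and Y396E against S181E (right), in control (circles) and arsenite (squares). Filled points were called. In control RQ had CHD7 at -0.36 and CHD9 at -0.48, and in arsenite Y396E had CHD7 at -0.45 and CHD1 at -0.38 against S181E.

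In several comparisons the change was related to transcript length across all genes. Across the 8734 genes, which are not independent, Pearson's r between the log2 change and the log2 exonic length was -0.31 for RQ against wild-type in arsenite, -0.29 and -0.31 for Y396E against S181E in control and arsenite, -0.32 for Y396E against wild-type in arsenite, and 0.06 for S181E against wild-type in control. It lay between -0.12 and -0.03 for arsenite against control in the 4 lines. The part of transcript length in the changes of the CHD mRNAs was not tested. Scaling also moved the balance of calls. Of the genes called lower or higher, the share that was lower went from 44.6% to 17.9% for RQ in control when total counts were used, and from 43.2% to 23.3% in arsenite, where it was 20.8% with the parental-level scaling and 61.2% by DESeq2. For Y396E against S181E it went from 64.4% to 33.1% in control and from 78.1% to 67.9% in arsenite with total counts, and to 92.2% and 98.2% with the parental-level scaling. For S181E and Y396E against wild-type it was 38.4% and 44.1% in control and 70.8% and 59.6% in arsenite. With total counts it was 13.5% and 11.7% in control and 24.6% and 24.7% in arsenite, and with the parental-level scaling it was 72.2% for Y396E in control and 85.7% and 88.7% in arsenite. Total counts shifted all changes against wild-type by a median of 0.16 for S181E in both treatments, and by 0.27 and 0.22 for Y396E in control and arsenite. For arsenite against control the share went from 47.3% to 69% in wild-type, from 51% to 73.7% in S181E, from 51.9% to 76.8% in Y396E and from 50% to 71.2% in RQ with the parental-level scaling. CHD7 was lower under each of these scalings in every comparison of lines and of treatments.

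The bead background was given by the parental cells, with 1 library per treatment and no test. As these cells were nonengineered, the bait, the IGF2BP2 and IGF2BP3 knockouts and the transduction cannot be told apart in the ratios over them. Under control conditions CHD7, CHD8 and CHD9 were at least 4-fold over the parental library in all 4 lines. CHD7 had 39 counts, or 26.3 CPM, in the parental control library (95% Poisson interval 18.7 to 36.0, counting error only), and was 14-fold higher with wild-type, 10.9-fold with RQ, 5.32-fold with S181E and 4.24-fold with Y396E. CHD9, with 27 parental counts, was 12.1-fold, 8.69-fold, 9.67-fold and 7.43-fold higher in the same order. CHD8 had 0 parental control counts, with a 95% Poisson interval up to 2.49 CPM. With wild-type it was 18.8-fold over a floor of 3 counts, or 2.02 CPM, which is not a strict lower bound. Yet it stood at 89.3 CPM in the parental arsenite library, above all 23 mCherry libraries. CHD2 was 2.56-fold higher than the parental control library with wild-type, 2.35-fold with RQ, 2.13-fold with S181E and 1.63-fold with Y396E. The mean levels of CHD1, CHD3 and CHD6 were below the parental library in every line and treatment, with CHD6 at 81.7 CPM in the parental control library against 28.7 to 35.5 CPM with wild-type.

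After arsenite no CHD mRNA reached 4-fold over the parental library. CHD7, at 850 counts or 36.8 CPM there, was 3.48-fold higher with wild-type, 2.9-fold with RQ, 1.3-fold with S181E and 0.931-fold with Y396E. CHD9 was 3.02-fold, 2.33-fold, 2.44-fold and 1.91-fold higher. CHD2 stood at 102 CPM in the parental arsenite library and at 0.261 to 0.373 times that level in the 4 lines. With the deeper parental arsenite library as background for the control groups, CHD7 was 10.0-fold higher with wild-type, 7.81-fold with RQ, 3.81-fold with S181E and 3.03-fold with Y396E. CHD8 was below that library, and so was CHD2, at 0.495 to 0.779 times its level.

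**Figure D5:**
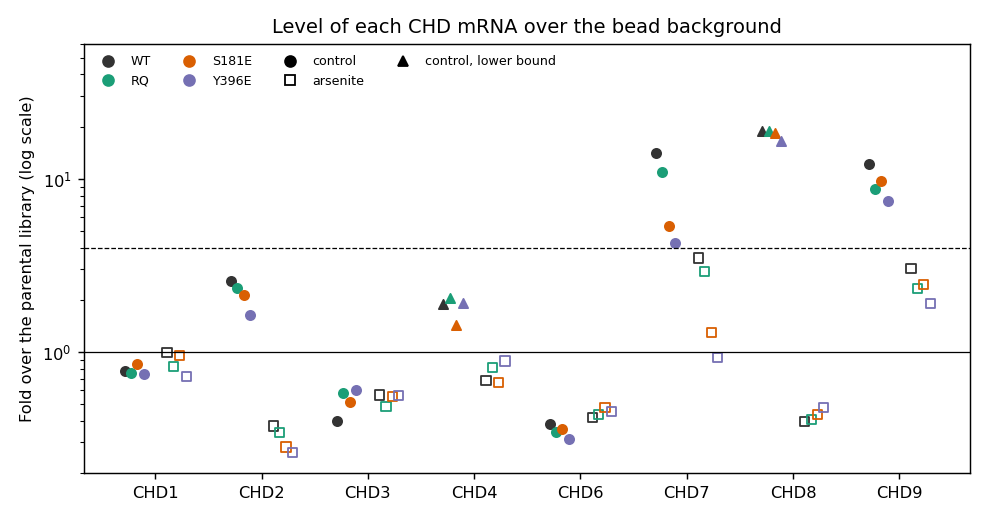
Mean level of each CHD mRNA divided by its level in the parental library of the same treatment (vertical axis, log scale), by line (colours), for control (filled) and arsenite (open squares). Triangles, labelled as lower bounds, are ratios to a floor of 3 counts where the parental count was 0. The dashed line is 4-fold and the solid line equality. CHD7 with wild-type lies at 14 in control and 3.48 in arsenite, and with Y396E at 4.24 and 0.931.

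CHD2 and CHD9 varied with CHD7 over the 23 mCherry libraries, and the other tested members did so less or in the opposite direction. These libraries include those used in choosing the family. Pearson's r of log2 CPM with CHD7, which is a description over libraries that share lines and treatments, was 0.88 for CHD2 and 0.87 for CHD9, and 0.43 for CHD6. It was -0.25 for CHD8, -0.36 for CHD3 and -0.41 for CHD1. Among the genes outside the family with the highest r were PABPC1 (0.98), the cytoplasmic poly(A)-binding protein, ZBTB20 (0.98), APBB2 (0.98) and TRIB1 (0.98). In wild-type, arsenite changed PABPC1 by -1.40 in log2, ZBTB20 by -1.45, TRIB1 by -1.67 and APBB2 by -0.47, next to -1.54 for CHD7.

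Other chromatin remodeling genes gave a wider frame. The NuRD partners of CHD3 and CHD4 (12 of 12 tested) had 3 genes lower and 8 higher in arsenite in wild-type and in S181E, 3 and 6 in Y396E, and 3 and 7 in RQ, beside 31.8% lower and 35.4% higher of all genes in wild-type. Their median log2 change in wild-type was 0.71, beside 0.03 for all genes. MTA2, a core NuRD subunit, rose by 2.19 (edgeR adjusted p = 3.11e-12) and GATAD2B by 1.36 (edgeR adjusted p = 6.71e-10), while the methyl-CpG-binding family member MBD3 fell by 1.09 (edgeR adjusted p = 2.19e-08), as did the small subunit CDK2AP1. With the parental-level scaling the NuRD median was 0.33 in wild-type and 0.10, -0.04 and 0.29 in S181E, Y396E and RQ, with 4 lower and 6 higher in wild-type, 4 and 5 in S181E, 5 and 4 in Y396E, and 3 and 5 in RQ.

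Of 21 other SNF2-type ATPases, 19 were tested, and 2 were lower and 10 higher in wild-type arsenite, with a median of 0.54. Of all genes, 31.8% were lower and 35.4% higher there, with a median of 0.03. With the parental-level scaling the median of these ATPases was 0.17 in wild-type, 0.06 in Y396E and 0.11 in RQ, and just below 0 in S181E. HLTF, a DNA damage tolerance factor, rose by 1.71 (edgeR adjusted p = 3.73e-09), and SMARCA1, a motor of ISWI complexes, was also called higher (edgeR adjusted p = 1.79e-05). INO80, the motor of its own remodeling complex, fell by 0.74 (edgeR adjusted p = 5.52e-06), as did the RAD54L2 ATPase by 0.66. In the other lines 3 were lower, with 9 higher in S181E, 11 in Y396E and 9 in RQ. Of all genes, 34.6% were lower and 33.3% higher in S181E, 33.8 and 31.3% in Y396E, and 32.3 and 32.4% in RQ. Of the SWI/SNF subunits (22 of 22 tested), 7 were lower and 8 higher in wild-type arsenite, with a median of -0.02. These counts were near the shares of all genes in wild-type. DPF2 rose by 1.41 and SMARCC2 by 1.38, while BCL7B fell by 1.53 and BICRAL by 1.03. In this list 13 were lower and 6 higher with the parental-level scaling, where 4180 of all genes were lower and 1881 higher.

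Between lines the number of these genes called varied with the comparison. With S181E against wild-type in control, 1 NuRD partner was lower and 3 higher. Other ATPases had 1 lower and 2 higher, and SWI/SNF subunits 1 lower and 1 higher. In arsenite only 3 SWI/SNF subunits were called with S181E, all lower. Of all genes, 8% were lower and 12.8% higher with S181E in control, and 5.34% and 2.2% in arsenite. With Y396E against wild-type, 4 NuRD partners were lower and 4 higher in control and 4 lower and 1 higher in arsenite. For SWI/SNF, 5 subunits were lower and 3 higher in control and 7 lower and 1 higher in arsenite. The other ATPases had 1 lower and 1 higher in control and 1 lower and 2 higher in arsenite. Of all genes, 12.7% were lower and 16.2% higher with Y396E in control, and 19.4% and 13.1% in arsenite. With RQ in control 2 NuRD partners were lower and 1 higher, namely CDK2AP1 (-0.46, edgeR adjusted p = 0.00882), MTA2 (-0.47, edgeR adjusted p = 0.0394) and HDAC2 (0.60, edgeR adjusted p = 0.00867). None of the 19 other ATPases was called, and 2 SWI/SNF subunits were lower, ARID1A (-0.71, edgeR adjusted p = 0.000199) and BCL7B (-0.49, edgeR adjusted p = 0.00518). Of all genes, 2.83% were lower and 3.51% higher with RQ in control. In arsenite none of the 3 lists had a gene called with RQ by edgeR, and DESeq2 called 1 NuRD partner lower. By edgeR 0.218% of all genes were lower there and 0.286% higher. For Y396E against S181E, 1 NuRD partner was lower and 2 higher in control and 2 lower and none higher in arsenite, while the other ATPases had none called in either treatment and the SWI/SNF subunits had 2 lower and 2 higher in control and 3 lower and 1 higher in arsenite. With the parental-level scaling 4 of the other ATPases were lower in control and 2 in arsenite, and 6 SWI/SNF subunits were lower and 0 higher in arsenite. DESeq2 called 2 ATPases lower and 1 higher in control.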

How the data were processed

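RIP-seq counts of 25 libraries were analysed. The authors aligned reads to hg38 with STAR 2.7.11b and the GENCODE annotation, and the deposited values are raw counts per gene over exons by strand from featureCounts (Subread 2.0.6), with 1 table per library. Symbols and biotypes came from another GENCODE release, which held 62541 of 63086 identifiers. No 2 libraries had identical counts. Dishes were grown independently per the study's methods.

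Tests used edgeR 4.0.16 in R 4.3.3 with TMM factors. Protein-coding genes above 10 CPM in at least 11.5 of 23 mCherry libraries were tested (8734), with 8 groups, no covariates, glmQLFTest and Benjamini-Hochberg adjustment over all genes tested. Calls needed an adjusted p under 0.05 and a change over 20%. Intervals are 95%. Printed CPM used TMM over 25 libraries, and the correlation with CHD7 used log2 CPM with a prior count of 2. Where a parental count was 0, a floor of 3 counts was used. Such floors and intervals cover counting error only, since PCR copies are not independent molecules. Motifs were counted with Python 3.11.15, and plots made with matplotlib 3.10.9. The procedure was tested on simulated data.

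The members and lists were chosen with earlier results of these data known. The genes named are the family, the bait, the 5 most correlated with CHD7 (of which 1 is not reported here), CHD5 and CHD1L, and at most the 2 lowest and the 2 highest called genes of a list (NuRD, ATPases, SWI/SNF) in a comparison. Same-numbered libraries deviated together for S181E against wild-type in arsenite (correlations 0.283 to 0.392) and Y396E against S181E in control (0.118 to 0.562), and the block is given there. This pairing comes from the correlations, since no source states a shared batch. Alternatives were total counts, TMM over 3572 genes at or below the parental arsenite level, DESeq2 1.42.0, no filter (16940 genes), only the groups compared, the replicate block and each library left out.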

Additional observations from a re-analysis of the deposited data

How the results depend on the processing

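The total counts of CHD mRNAs called in arsenite against control stayed within 1.5 times under every alternative run in all 4 lines, as did those for Y396E against wild-type, and the other counts between lines did not. Within these totals the directions moved. With the parental-level scaling S181E and RQ went from 3 lower and 1 higher in arsenite to 5 lower and 0 higher, and with total counts Y396E against wild-type in arsenite went from 4 lower and 0 higher to 2 lower and 1 higher. For RQ against wild-type in control the 2 calls became 1 with total counts, with the parental-level scaling and without a filter, and 0 with only the groups compared. For RQ in arsenite the count of 0 became 1 with only the groups compared. For Y396E against S181E in control the 1 call became 0 with total counts, without a filter or with only the groups compared, 2 by DESeq2, and 3 with the parental-level scaling. In arsenite the 2 calls became 1 with total counts or without a filter. For S181E against wild-type in control the 2 calls became 1 with the parental-level scaling, without a filter or with only the groups compared, and 1 lower and 1 higher with total counts, and in arsenite the 1 call became 3 with only the groups compared. With the replicate number as a block, the pairing gave 2 calls in place of 1 for S181E against wild-type in arsenite and for Y396E against S181E in control, and no other count moved by over 1.5 times. The other comparisons were not treated as paired. Their correlations ran from -0.122 to 0.448 and were all above 0 in some, as for RQ against wild-type in arsenite (0.143 to 0.21). In these comparisons the block gave 6 calls in place of 5 in wild-type arsenite and 4 in place of 3 in Y396E arsenite. It gave 4 in place of 3 in Y396E against wild-type in control, 3 in place of 2 for Y396E against S181E in arsenite, and the same count elsewhere.

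Leaving out 1 library gave 1 to 2 calls for S181E against wild-type in control and in arsenite, 0 to 1 for RQ against wild-type in control, 0 to 1 for Y396E against S181E in control and 0 to 1 in arsenite. Over the parental library, the 3 mRNAs at least 4-fold higher became 1 with S181E and 0 with Y396E in control against the parental arsenite library, and 1 with Y396E with total counts.

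Among changes called in either setting, those that reversed did so with the parental-level scaling. CHD1 in arsenite against control was then at -0.0722 in S181E (edgeR adjusted p = 0.653) and at -0.0607 in RQ (0.744), and CHD8 at -0.40 in S181E (0.0428). The cause was not tested. Changes that were not called also turned sign, such as CHD1 and CHD8 in Y396E with that scaling, CHD1 for Y396E against wild-type in control with total counts (0.22), and CHD3 in RQ arsenite without the third RQ control library (0.26). Depth limits the parental control ratios, where 1 count is 0.675 CPM, and CHD4 has only 952 countable bases. RQ in arsenite rests on 2 libraries, and without either the other is assumed to vary like the rest.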
